A study of Homo sapiens with 9 samples.

Results

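A set of 10 heat shock chaperone genes of the cytosol and the mitochondrial matrix was followed across knockouts of TRAM2, a component of the translocon, which feeds newly made secretory and membrane chains into the endoplasmic reticulum (ER). The 10 genes were HSPA1A, HSPA1B, HSPA8, HSP90AA1, HSPH1, DNAJB1, HSPB1, HSPD1, HSPE1 and BAG3, and they were picked by name, for what their proteins do and with earlier results of these data known. All 10 were among the 15139 genes with enough reads to be tested, out of 59294 genes in the annotation.

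The cells were MCF10A-YAP, a derivative of the immortalised human breast epithelial line MCF10A that overexpresses a constitutively active YAP, the transcription coactivator restrained by the Hippo pathway. They had been transduced with a vector for the guide RNA TRAM2-KO2, for the guide RNA TRAM2-KO1 or for a non-targeting control sgRNA, selected with antibiotic, and harvested before confluence. Poly(A) RNA was sequenced from 3 libraries per group, lettered A, B and C. The labels describe transduced populations and name no clone, no heat treatment and no other stress, and all 9 libraries carry the active YAP. The design text of the series lists other conditions instead (an empty vector, TRAM2 overexpression, YAP overexpression), so groups follow the sample labels. Nothing beyond that text's mention of biological replicates says whether the libraries of a group came from separate cultures, so the p-values below measure the spread between these libraries, which may be technical.

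Chaperones hold proteins that are not yet folded, or no longer folded, and release them for another attempt. In the cytosol, HSP70 proteins (HSPA1A, HSPA1B and HSPA8) bind exposed hydrophobic stretches, a J-domain partner such as DNAJB1 hands them the client and triggers ATP hydrolysis, and exchange factors such as HSPH1 and BAG3 let the client go. HSP90 (HSP90AA1) takes clients such as kinases and steroid receptors at a later stage, the small heat shock protein HSPB1 keeps unfolded chains from aggregating without using ATP, and in the mitochondrial matrix HSPD1 (HSP60) and its lid HSPE1 (HSP10) form a folding chamber. In human cells the transcription factor HSF1 switches these genes on when unfolded protein builds up in the cytosol, by binding heat shock elements, which are inverted repeats of the letters GAA. Unfolded protein in the ER is read by another set of sensors, with the ER chaperones as targets.

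To show what such elements look like in front of these genes, the RefSeq promoter windows of GRCh38.p14 were searched over the 250 bases before each annotated start. A match of 2 units was GAANNTTC or TTCNNGAA. A match of 3 units was GAANNTTCNNGAA or TTCNNGAANNTTC, each of which holds a pair of overlapping matches of 2 units. The letters of 2 units read the same on the other strand and the 2 forms with 3 units are each other's reverse complement, so both strands were covered. All 10 genes had a window, 14 windows in all because HSP90AA1, DNAJB1 and HSPD1 have several annotated starts. Of the 14 windows, 7 held a match of 2 units, 1 window for each of 7 genes, against 11.6% of all 35116 windows. A match of 3 units stood in 3 of the 14, against 0.441% of all windows. Counted per gene, 7 of the 10 held a match of 2 units and 3 a match of 3 units. Among 73 related chaperone genes with a window, taken from the lists described below, 16 and 4 did. HSPH1, HSPE1 and BAG3 held neither, which says only that these letters are not in these windows. A match is a run of letters, and whether HSF1 binds there was not measured. Other letters that these promoters may share were not searched for. The stretches that hold a match are shown, each 5′ to 3′ on the strand of its gene, with the matched letters in capitals.
HSPA1A: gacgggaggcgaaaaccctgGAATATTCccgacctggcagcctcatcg
HSPA1B: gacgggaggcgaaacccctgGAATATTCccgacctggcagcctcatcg
HSPA8 far stretch: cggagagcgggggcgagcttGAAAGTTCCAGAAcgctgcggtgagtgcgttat
HSPA8 near stretch: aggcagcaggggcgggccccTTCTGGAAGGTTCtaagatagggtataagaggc
HSP90AA1: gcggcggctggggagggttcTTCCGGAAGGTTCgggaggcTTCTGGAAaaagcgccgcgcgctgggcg
DNAJB1 far stretch: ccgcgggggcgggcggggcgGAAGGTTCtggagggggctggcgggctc
DNAJB1 near stretch: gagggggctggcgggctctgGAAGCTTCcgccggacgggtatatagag
HSPB1: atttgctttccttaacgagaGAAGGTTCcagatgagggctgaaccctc
HSPD1: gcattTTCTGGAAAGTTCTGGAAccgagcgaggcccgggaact

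The HSPA1A stretch (chr6:31815417-31815464, plus strand) and the HSPA1B stretch (chr6:31827613-31827660, plus strand) were identical at 47 of 48 positions, and their match lay 106 to 99 and 105 to 98 bases before the start. Chromosome positions here are those of the whole printed stretches, small letters included. HSPA8 (minus strand) had a match of 3 units 230 to 218 bases before its start, in the stretch at chr11:123062334-123062386. Another lay 55 to 43 bases before it, in the stretch at chr11:123062159-123062211. In HSP90AA1 (minus strand, second annotated start) the capitals spanned 88 to 61 bases before the start, in the stretch at chr14:102087085-102087152. The far DNAJB1 match (minus strand, second annotated start) lay 77 to 70 bases before the start, in the stretch at chr19:14518447-14518494. The near DNAJB1 match lay 47 to 40 bases before that start, in the stretch at chr19:14518417-14518464. The HSPB1 match (plus strand) lay 182 to 175 bases before the start, in the stretch at chr7:76302471-76302518. HSPD1 and HSPE1 are neighbours on opposite strands, with 104 bases between the first annotated HSPD1 start and the HSPE1 start and 538 bases between the second and the HSPE1 start. The HSPD1 match (minus strand), in the stretch at chr2:197500048-197500090, lay 245 to 228 bases before the second HSPD1 start. The same match lay 294 to 311 bases from the HSPE1 start, beyond the window searched for HSPE1.

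**Figure D1:**
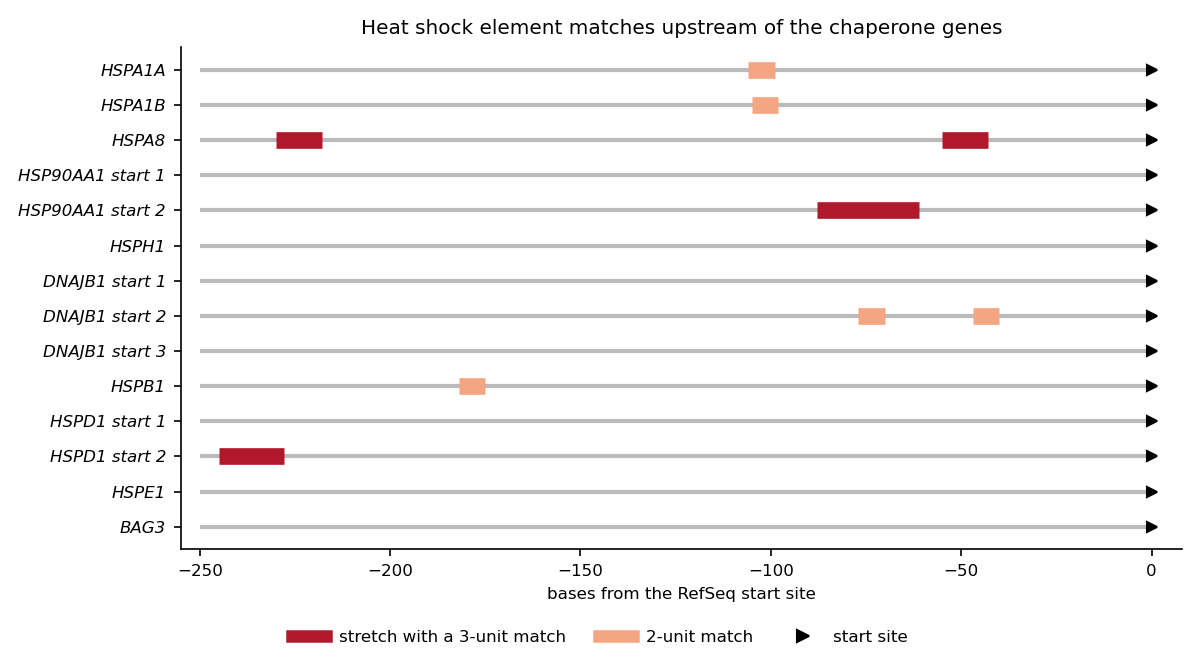
Heat shock element matches in the 250 bases before each annotated start of the 10 chaperone genes, drawn to scale with the start at 0 (x axis, bases). Dark bars mark stretches with a match of 3 units and light bars a match of 2 units; the windows of HSPA8, of the second HSP90AA1 start and of the second HSPD1 start carry the dark bars, and HSPH1, HSPE1 and BAG3 carry none.

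The libraries held between 21.7 and 27.6 M estimated reads. Where 3 values per group follow, they are those of libraries A, B and C in that order. TRAM2, the targeted gene, stood at 216, 212 and 210 CPM (counts scaled by library size and TMM factors) with TRAM2-KO2, at 219, 210 and 203 CPM with TRAM2-KO1, and at 481, 464 and 475 CPM in the controls. It fell by 55.1% with TRAM2-KO2 (adjusted p = 4.7e-08) and by 55.5% with TRAM2-KO1 (adjusted p = 4.93e-08). The TRAM2-KO1 libraries were less alike than those of the other groups: their pairwise chi-square per degree of freedom was 5.65 to 11.4, against 3.71 to 6.38 among TRAM2-KO2 libraries and 2.12 to 4.33 among controls, and for TRAM2-KO1 A the nearest library was not B (11.4) or C (7.23) of its group but TRAM2-KO2 A (5.16). Over genes, the deviation of a library from the mean of all 9 followed GC content with a Spearman coefficient of -0.53 in TRAM2-KO1 B and -0.36 in TRAM2-KO1 C, whereas it was 0.18 in TRAM2-KO1 A, -0.09 to 0.40 in TRAM2-KO2 libraries and 0.14 to 0.25 in controls. For this reason TRAM2-KO1 values are also given below without library A, for the 10 genes, HSF1 and the chaperonin and ER lists. Those fits keep TRAM2-KO1 B and C, the libraries with the lowest coefficients, and are no correction for the GC trend. For TRAM2-KO1 against control they called 1952 of 15409 genes. With all libraries 440 of 15139 genes were called, and without TRAM2-KO1 B 329 of 15452. Of 8 basal epithelial markers 7 were above 1 CPM, and their sum was 4891 to 5269 CPM in TRAM2-KO2, 3918 to 4332 CPM in TRAM2-KO1 and 4578 to 4697 CPM in controls. The other, TP63, had at most 3 reads in any library. Between the guides, 6 of the 7 markers tested were called higher in TRAM2-KO2 and 0 lower, with a median log2 fold change of 0.36. Of all genes, 1.41% were called higher there and 0.865% lower. Of these markers the keratin genes KRT5, KRT6A, KRT14 and KRT17 rose with TRAM2-KO2, by 0.13 to 0.48 on the log2 scale (adjusted p = 0.00102 to 0.0269), and CDH1 and LAMB3 fell with TRAM2-KO1 (-0.41 and -0.43, adjusted p = 0.0036 and 0.0062). Of 7 fibroblast markers 1 or 2 passed 1 CPM, with sums of 122 to 125 CPM in TRAM2-KO2, 118 to 136 CPM in TRAM2-KO1 and 140 to 145 CPM in controls. Nearly all of that sum was FAP, which fell with TRAM2-KO2 (-0.20, adjusted p = 0.0433) and stood at -0.18 with TRAM2-KO1 (adjusted p = 0.0882), while LUM, the next highest, reached at most 1.63 CPM. Blood and endothelial markers summed to at most 0.612 CPM, with CD3E at 0 reads in all 9 libraries. The part of these differences in the results below was not tested. In bulk RNA, fewer cells of a kind and less RNA per cell cannot be told apart.

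Of the 10 chaperones, 3 passed the test in at least 1 comparison, and each was lower where it passed. With TRAM2-KO1 the heat-inducible HSP70 gene HSPA1A fell by 27.5%, its near-identical copy HSPA1B fell by 21.2% in the mean of both guides, and the constitutive HSP70 gene HSPA8 fell by 9.19% with TRAM2-KO2 and lay 12.7% lower in TRAM2-KO2 than in TRAM2-KO1. The other 7 genes passed the test (adjusted p under 0.05) in none of the 4 comparisons, and no chaperone of the 10 differed beyond 0.5 on the log2 scale. Of the 10, the test called 0 higher and 1 lower in TRAM2-KO2 against control, where 1.73% and 2.49% of all 15139 genes were called higher and lower. The counts were 0 higher and 1 lower in TRAM2-KO1 against control (0.753% and 2.15% of all genes), 0 and 1 for the mean of both guides (1.33% and 2.51%), and 0 and 1 in TRAM2-KO2 against TRAM2-KO1 (1.41% and 0.865%). With 10 genes, 1 call is 1 gene, and the share cannot be set closely against those percentages. At an unadjusted p under 0.05, 3 of the 10 passed in TRAM2-KO2 against control, 5 in TRAM2-KO1, 3 in the mean of both guides and 5 between the guides, beside 2273, 2806, 2245 and 3004 of the 15139 genes. The median log2 fold change of the 10 was -0.05, -0.03, -0.05 and -0.03 in the same 4 comparisons, and that of all genes tested lay between -0.01 and 0.01. The 4 comparisons share libraries and are not independent of each other.

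**Figure D2:**
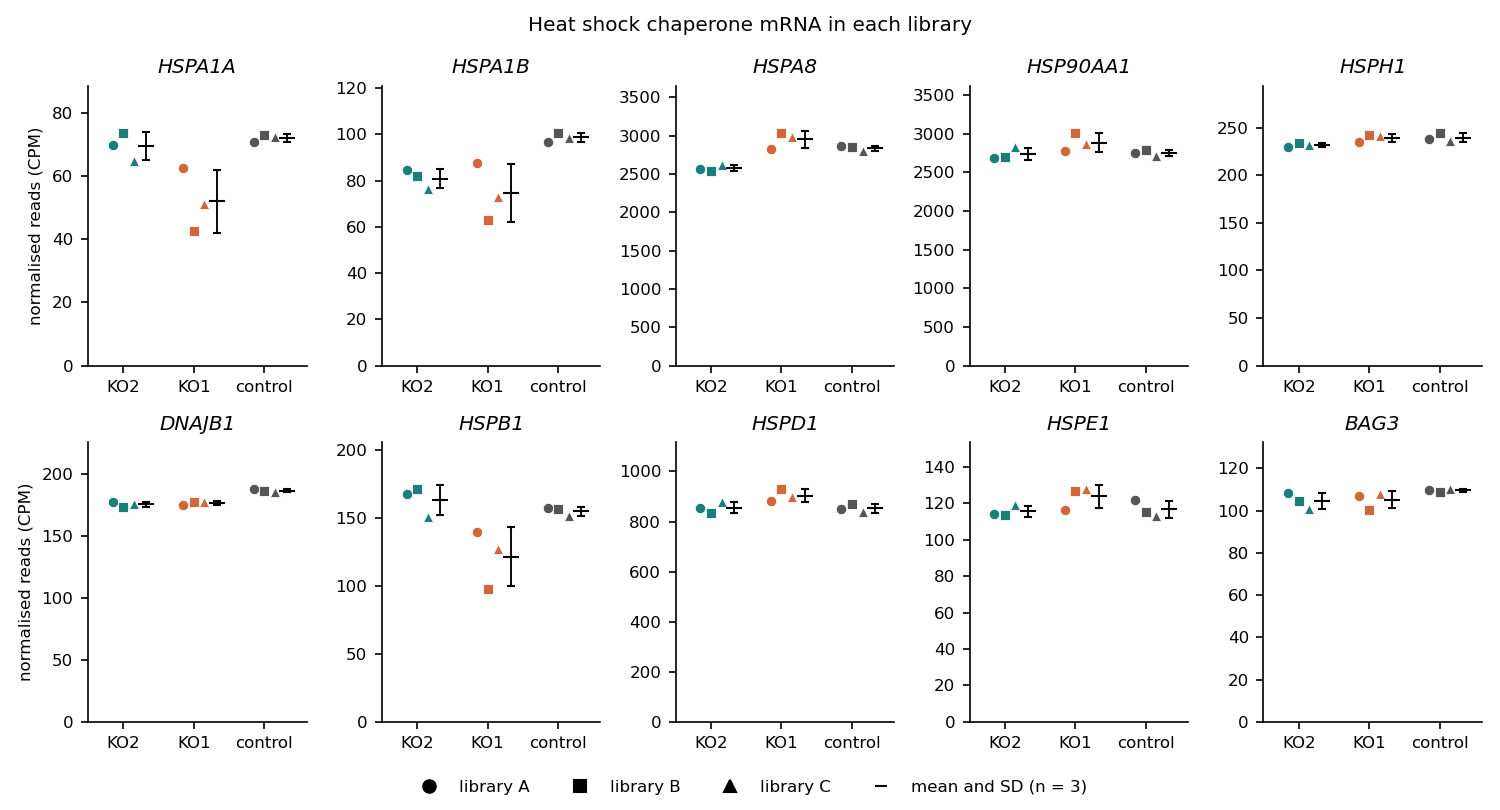
Normalised reads (CPM, y axis from 0) of each of the 10 chaperone genes in the libraries of TRAM2-KO2, TRAM2-KO1 and control, with circles for library A, squares for B and triangles for C, and bars for the mean and SD of 3 libraries. HSPA1A, HSPA1B and HSPB1 scatter widely within TRAM2-KO1, with library B lowest, while DNAJB1 is at 173 to 177 CPM in all 6 knockout libraries and at 185 to 188 CPM in controls.

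Before the changes, the levels per transcript length set out which chaperones these cells carry. Levels were summed over all transcripts of a gene, and for HSPE1 a transcript with a retained intron took 71.0% to 82.0% of reads. On the TPM scale, which accounts for transcript length, HSPA8 was the most abundant at 2790.0 ± 119 in TRAM2-KO2, 3234 ± 238 in TRAM2-KO1 and 3070.3 ± 21.8 in controls (SD, n = 3 each), and over all libraries it ranked 36 of 15139 genes. HSP90AA1 followed at 1109 ± 63.0 TPM in TRAM2-KO2, 1135 ± 64.1 in TRAM2-KO1 and 1112 ± 30.7 in controls, and HSPD1 at 711 ± 86.7 TPM in TRAM2-KO2, 768 ± 66.0 in TRAM2-KO1 and 753 ± 28.2 in controls. These 3 genes were apart from each other in every group by more than the spread between libraries. Next came HSPB1 at 478 ± 24.6 TPM in TRAM2-KO2, 360 ± 46.2 in TRAM2-KO1 and 445 ± 3.63 in controls and HSPE1 at 325 ± 13.6 TPM in TRAM2-KO2, 335 ± 16.4 in TRAM2-KO1 and 317 ± 13 in controls, whose libraries overlapped in TRAM2-KO1. DNAJB1 (115 ± 4.76 TPM in TRAM2-KO2, 114 ± 5.78 in TRAM2-KO1 and 123 ± 1.88 in controls) and HSPH1 (78.2 ± 3.08 TPM in TRAM2-KO2, 99.1 ± 17.5 in TRAM2-KO1 and 88.1 ± 13.7 in controls) likewise overlapped in TRAM2-KO1. BAG3 stood at 52.9 ± 1.62 TPM in TRAM2-KO2, 50.3 ± 1.81 in TRAM2-KO1 and 54.6 ± 0.647 in controls. The stress-inducible pair was lowest, HSPA1B at 40.0 ± 1.96 TPM in TRAM2-KO2, 35.8 ± 5.63 in TRAM2-KO1 and 48.1 ± 1.11 in controls and HSPA1A at 34.9 ± 2.83 TPM in TRAM2-KO2, 25.6 ± 4.29 in TRAM2-KO1 and 35.6 ± 0.804 in controls, ranks 3358 and 4104 of all genes tested, and their libraries overlapped in TRAM2-KO2.

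HSPA1A and HSPA1B encode nearly the same protein, the HSP70 that is scarce in unstressed cells and made in quantity after heat. The genes are neighbours on chromosome 6 of GRCh37 (HSPA1A at 31783320 to 31785723 and HSPA1B at 31795515 to 31798031, both on the plus strand, 9792 bases apart). HSPA1A (ENSG00000204389) stood at 69.9, 73.8 and 64.8 CPM with TRAM2-KO2, at 62.4, 42.6 and 51.1 CPM with TRAM2-KO1, and at 70.8, 73.0 and 72.4 CPM in the controls. All 3 TRAM2-KO1 libraries lay below every other library, whereas TRAM2-KO2 libraries straddled the controls. With TRAM2-KO1 its log2 fold change was -0.46 with a 95% interval of -0.70 to -0.23 (SE 0.107), just past the threshold (adjusted p = 0.0476). For TRAM2-KO2 that value was -0.05 (adjusted p = 0.906), and the difference of 0.41 between the guides did not pass the test (adjusted p = 0.0791). That difference passed with DESeq2 (adjusted p = 0.00532), with no filter on low counts (0.00218), with GC offsets (0.28, adjusted p = 0.0308) and without TRAM2-KO1 A (0.56, adjusted p = 0.00282), and with TRAM2-KO1 as library A alone it was 0.16 (adjusted p = 0.465).

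The fall of HSPA1A with TRAM2-KO1 was not even over its libraries. Against the control mean, HSPA1A stood at -0.21, -0.76 and -0.50 on the log2 scale with TRAM2-KO1. Without library A the log2 fold change was -0.62 (adjusted p = 0.0011), without library B it was -0.35 (adjusted p = 0.0626), and with TRAM2-KO1 represented by library A alone it was -0.21 (adjusted p = 0.321). Leaving out any other library, the controls and TRAM2-KO2 included, also ended the call, with adjusted p up to 0.156. At 59.8% GC the longest HSPA1A transcript lies near the 90th percentile of tested genes (61.0%, median 47.6%). Along the GC trend, a gene of its GC content stood at -0.22 in TRAM2-KO1 B and -0.12 in TRAM2-KO1 C against the mean of the 9 libraries, and at 0.05 in TRAM2-KO1 A. With GC offsets HSPA1A still fell with TRAM2-KO1, by 0.33 on the log2 scale (adjusted p = 0.0112).

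HSPA1B (ENSG00000204388) was at 84.5, 81.9 and 76.2 CPM with TRAM2-KO2, at 87.7, 62.8 and 72.9 CPM with TRAM2-KO1, and at 96.9, 101 and 98.3 CPM in the controls. All 6 knockout libraries lay below all 3 controls. In the mean of both guides it fell by 0.34 on the log2 scale (SE 0.0803, interval -0.52 to -0.17, adjusted p = 0.0415). For the single guides the log2 fold change was -0.29 with TRAM2-KO2 (SE 0.0934, adjusted p = 0.147) and -0.40 with TRAM2-KO1 (SE 0.0941, adjusted p = 0.0509), and the guides differed by 0.12 (interval -0.09 to 0.32, adjusted p = 0.539). Without TRAM2-KO1 A the guides differed by 0.25 and the test was passed (adjusted p = 0.0325), without TRAM2-KO1 B by 0.01 (adjusted p = 0.956), and with library A alone the value turned to -0.11 (adjusted p = 0.583). Against control, the TRAM2-KO1 value was -0.54 without library A (adjusted p = 0.000907) and -0.17 with that library alone (adjusted p = 0.35), and the TRAM2-KO2 value passed without TRAM2-KO1 A (adjusted p = 0.0147) or B (adjusted p = 0.0295). With GC offsets, HSPA1B passed the test with each guide, at -0.28 in both (adjusted p = 0.00548 with TRAM2-KO2 and 0.00849 with TRAM2-KO1). With TRAM2-KO1 as library A alone, the mean of both guides was -0.23 (adjusted p = 0.0134), and without that library -0.41 (adjusted p = 0.000812). That mean passed in 2 of the 9 fits that left out 1 library, without TRAM2-KO1 A or B, and the adjusted p rose to at most 0.185 in the others, at -0.41 to -0.29 over all 9.

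The division of reads between the copies is uncertain. Of the 31-base words of the HSPA1A transcript, 76.9% also occur in HSPA1B, and 73.3% of those of HSPA1B occur in HSPA1A, so the share of each copy was estimated from the remaining positions. Of the words of HSPA1A and HSPA1B, 36.3% and 35.8% also occur in another annotated gene, ENSG00000285565, with which the sum below could share reads. Summed to 1 feature, HSPA1A and HSPA1B fell with TRAM2-KO1 by 0.43 on the log2 scale (SE 0.0985, adjusted p = 0.0473). This call was kept in 1 of the 9 fits that left out 1 library, the one without TRAM2-KO1 A (-0.57, adjusted p = 0.000726), and was lost in the others (adjusted p up to 0.159, -0.32 without TRAM2-KO1 B). With TRAM2-KO1 as library A alone the sum was at -0.19 (adjusted p = 0.247). The sum was at -0.18 with TRAM2-KO2 (adjusted p = 0.442) and at -0.31 in the mean of both guides (adjusted p = 0.0836), which did not pass the test. With GC offsets the sum was at -0.18 with TRAM2-KO2 (adjusted p = 0.0568), -0.29 with TRAM2-KO1 (adjusted p = 0.00612) and -0.23 in the mean of both guides (adjusted p = 0.00676).

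HSPA8 encodes HSC70, the HSP70 that cells make at all times. Its gene (ENSG00000109971) lies on chromosome 11 of GRCh37 at 122928197 to 122933938. HSPA8 mRNA stood at 2569, 2541 and 2618 CPM with TRAM2-KO2, at 2823, 3041 and 2989 CPM with TRAM2-KO1, and at 2861, 2852 and 2797 CPM in the controls. The TRAM2-KO2 libraries lay below all 6 others, and TRAM2-KO1 A lay within the controls with B and C above them. HSPA8 fell with TRAM2-KO2 by 0.14 on the log2 scale (SE 0.0299, interval -0.21 to -0.07, adjusted p = 0.0271). It was lower in TRAM2-KO2 than in TRAM2-KO1 by 0.20 (SE 0.0299, interval -0.26 to -0.13, adjusted p = 0.00898). Against control, the TRAM2-KO1 value was 0.06 (adjusted p = 0.339), and 0.09 without library A, where it passed the test (adjusted p = 0.0348). The difference between the guides was -0.13 (adjusted p = 0.114) with TRAM2-KO1 as library A alone, and -0.23 (adjusted p = 0.00111) without that library. The fall with TRAM2-KO2 lost its call without any 1 library of TRAM2-KO2 or control (adjusted p up to 0.114, at -0.15 to -0.13), and the difference between the guides without TRAM2-KO2 B (adjusted p = 0.0584). At 45.7% GC, HSPA8 is near the median gene, and GC offsets left the fall with TRAM2-KO2 at -0.13 (adjusted p = 0.01). Of the 31-base words of its most read transcript, which took 46.1% of its reads, 40.7% also occur in other genes, mostly its pseudogenes. For the most read transcripts of HSPD1 and HSP90AA1 that share of words was 49.7% and 39.3%.

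HSPB1 (HSP27), an ATP-independent holdase that also binds actin filaments, scattered within TRAM2-KO1 as HSPA1A did and passed the test in none of the 4 comparisons, though it did under some of the alternatives below. It stood at 168, 171 and 151 CPM with TRAM2-KO2, at 139.9, 97.4 and 127 CPM with TRAM2-KO1, and at 157, 157 and 151 CPM in the controls. All TRAM2-KO1 libraries lay below the others, library B the farthest. The log2 fold change was 0.08 with TRAM2-KO2 (adjusted p = 0.841) and -0.35 with TRAM2-KO1 (SE 0.104, adjusted p = 0.116), and the guides differed by 0.43 (SE 0.104, adjusted p = 0.0654). At 64.3% HSPB1 has the highest GC content of the 10. With GC offsets its log2 fold change with TRAM2-KO1 was -0.11 (adjusted p = 0.266), while the guides differed by 0.21 and the test was passed (adjusted p = 0.0353). The TRAM2-KO1 value was -0.46 without TRAM2-KO1 A (adjusted p = 0.0121), -0.22 without TRAM2-KO1 B (adjusted p = 0.111) and -0.15 with library A alone (adjusted p = 0.554). It passed with DESeq2 (adjusted p = 0.0122) and with no filter on low counts (adjusted p = 0.00731). The difference between the guides passed with these as well (adjusted p = 0.00102 and 0.000744), at a mean of at least 5 CPM (adjusted p = 0.04999), without TRAM2-KO1 A (0.54, adjusted p = 0.00786) and without TRAM2-KO1 B (0.30, adjusted p = 0.0404), and it was 0.23 with library A alone (adjusted p = 0.241). HSPB1 (ENSG00000106211) lies on GRCh37 chromosome 7 at 75931990 to 75933612.

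**Figure D3:**
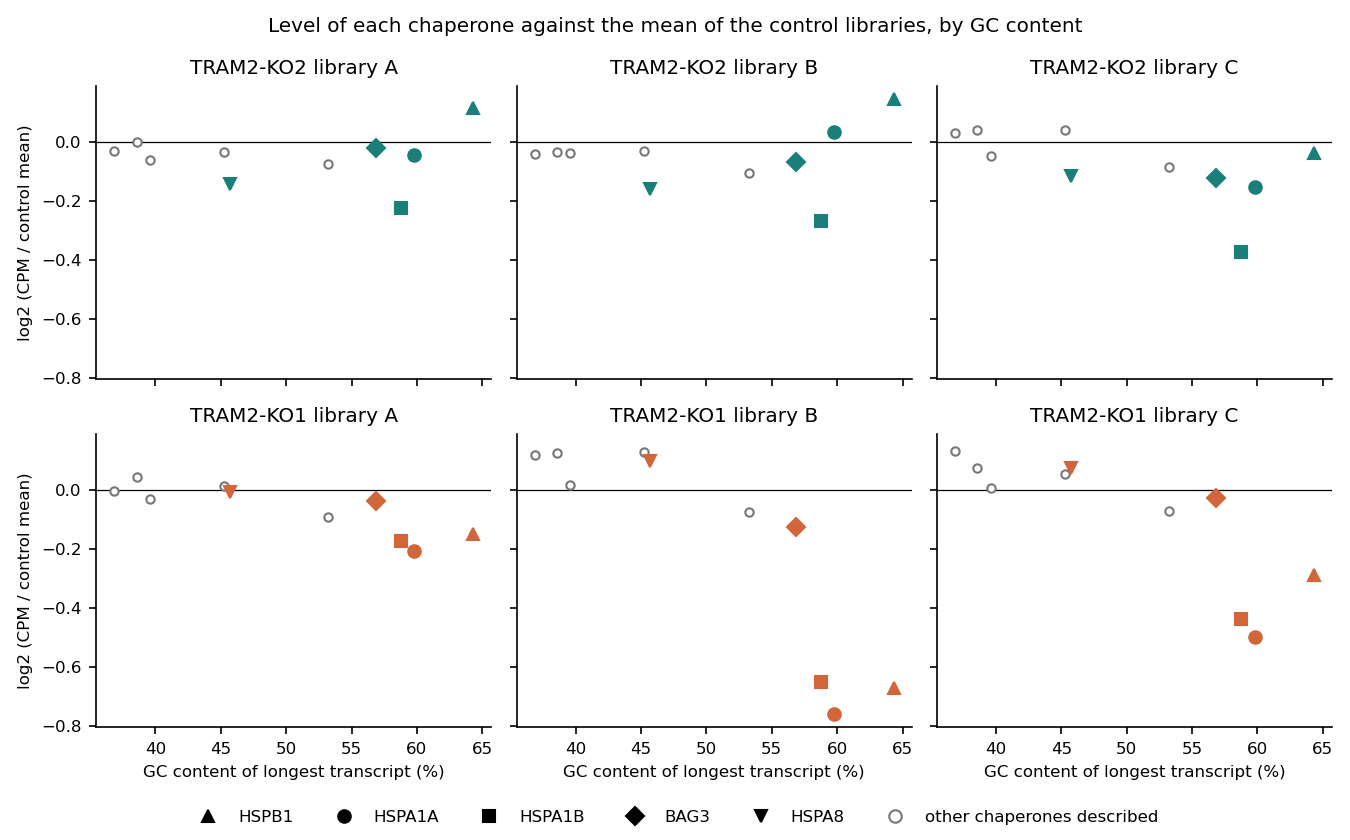
Level of each chaperone in each knockout library on the log2 scale against the mean of the 3 controls (y axis), by the GC content of its longest transcript (x axis, %); TRAM2-KO2 libraries are in the upper panels and TRAM2-KO1 libraries in the lower ones. In TRAM2-KO1 B and C the genes highest in GC content, HSPA1A, HSPA1B and HSPB1, lie between -0.76 and -0.29, and in TRAM2-KO1 A between -0.21 and -0.15. BAG3, the next by GC content at 56.9%, lies at -0.13 in TRAM2-KO1 B and -0.03 in TRAM2-KO1 C.

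Of the 10 genes, the HSP70 partners DNAJB1, BAG3 and HSPH1 passed the test in none of the 4 comparisons. DNAJB1 (HSP40), the J-domain protein of the cytosolic heat response, was at 177, 173 and 176 CPM with TRAM2-KO2, at 175, 177 and 177 CPM with TRAM2-KO1, and at 188, 186 and 185 CPM in the controls. All 6 knockout libraries lay below all 3 controls, at -0.07 to -0.11 on the log2 scale against the control mean. In the mean of both guides it stood at -0.08 on the log2 scale with an interval of -0.13 to -0.04 (SE 0.0219) and did not pass the test (adjusted p = 0.0698), though it did when genes with a mean under 5 CPM were left out (adjusted p = 0.0332). It was -0.09 with TRAM2-KO2 (adjusted p = 0.0955) and -0.08 with TRAM2-KO1 (adjusted p = 0.143). BAG3, a nucleotide exchange factor that routes clients to autophagy, stood at 108, 105 and 101 CPM with TRAM2-KO2, at 107, 100.5 and 108 CPM with TRAM2-KO1, and at 109.6, 109 and 110.3 CPM in the controls. Its log2 fold change was -0.07 with TRAM2-KO2 (adjusted p = 0.451) and -0.06 with TRAM2-KO1 (adjusted p = 0.414), turning to 0.03 with TRAM2-KO1 under GC offsets. HSPH1 (HSP110), the exchange factor of the HSP110 family, ranged from 229.6 to 233 CPM in TRAM2-KO2, from 235 to 242 CPM in TRAM2-KO1 and from 236 to 245 CPM in controls. Its log2 fold change was -0.05 with TRAM2-KO2 (interval -0.11 to 0.01, adjusted p = 0.47) and 0.00 in size with TRAM2-KO1 (-0.00118, interval -0.06 to 0.06, adjusted p = 0.991). Without TRAM2-KO1 A the TRAM2-KO1 values were -0.07 for DNAJB1 (adjusted p = 0.123), -0.07 for BAG3 (adjusted p = 0.29) and 0.01 for HSPH1 (adjusted p = 0.816).

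HSP90AA1, the inducible cytosolic HSP90, was at 2690, 2698 and 2833 CPM with TRAM2-KO2, at 2782, 3014 and 2860 CPM with TRAM2-KO1, and at 2749, 2795 and 2716 CPM in the controls. TRAM2-KO1 B was the highest library and the groups overlapped. The log2 fold change was -0.01 with TRAM2-KO2 (interval -0.08 to 0.07, adjusted p = 0.967) and 0.07 with TRAM2-KO1 (interval -0.01 to 0.14, adjusted p = 0.31), or 0.09 without TRAM2-KO1 A (adjusted p = 0.0818). Its constitutive relative HSP90AB1 stood at 0.04 in the mean of both guides (adjusted p = 0.549), and HSP90AA1 at 0.03 (adjusted p = 0.677).

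The mitochondrial chaperonin genes HSPD1 and HSPE1, which lie head to head on chromosome 2, passed the test in none of the 4 comparisons with all libraries. HSPD1 was at 853, 833 and 877 CPM with TRAM2-KO2, at 881, 931 and 899.8 CPM with TRAM2-KO1, and at 851, 871 and 836 CPM in the controls. HSPE1 was at 114, 113 and 119 CPM with TRAM2-KO2, at 116, 127 and 128 CPM with TRAM2-KO1, and at 122, 115 and 113 CPM in the controls. For both genes TRAM2-KO2 libraries mixed with the controls. For HSPD1 all TRAM2-KO1 libraries were above the controls, and for HSPE1 TRAM2-KO1 B and C were. HSPD1 had a log2 fold change of 0.00 with TRAM2-KO2 (0.00245, interval -0.07 to 0.07, adjusted p = 0.99) and 0.08 with TRAM2-KO1 (interval 0.02 to 0.15, adjusted p = 0.188). For HSPE1 it was -0.01 with TRAM2-KO2 (interval -0.11 to 0.09, adjusted p = 0.951) and 0.08 with TRAM2-KO1 (interval -0.01 to 0.18, adjusted p = 0.342). Without TRAM2-KO1 A the TRAM2-KO1 values were 0.10 for HSPD1 (adjusted p = 0.0591) and 0.13 for HSPE1 (adjusted p = 0.0677), and HSPE1 was then lower in TRAM2-KO2 than in TRAM2-KO1 by 0.14 and passed the test (adjusted p = 0.0489), where it was -0.10 with all libraries (adjusted p = 0.253). HSPA9, the HSP70 of the mitochondrial matrix, stood at 0.03 in the mean of both guides (adjusted p = 0.636), at 0.87 on protein-coding transcripts alone (adjusted p = 0.33) and at 0.0017 with TRAM2-KO1 as library A alone.

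**Figure D4:**
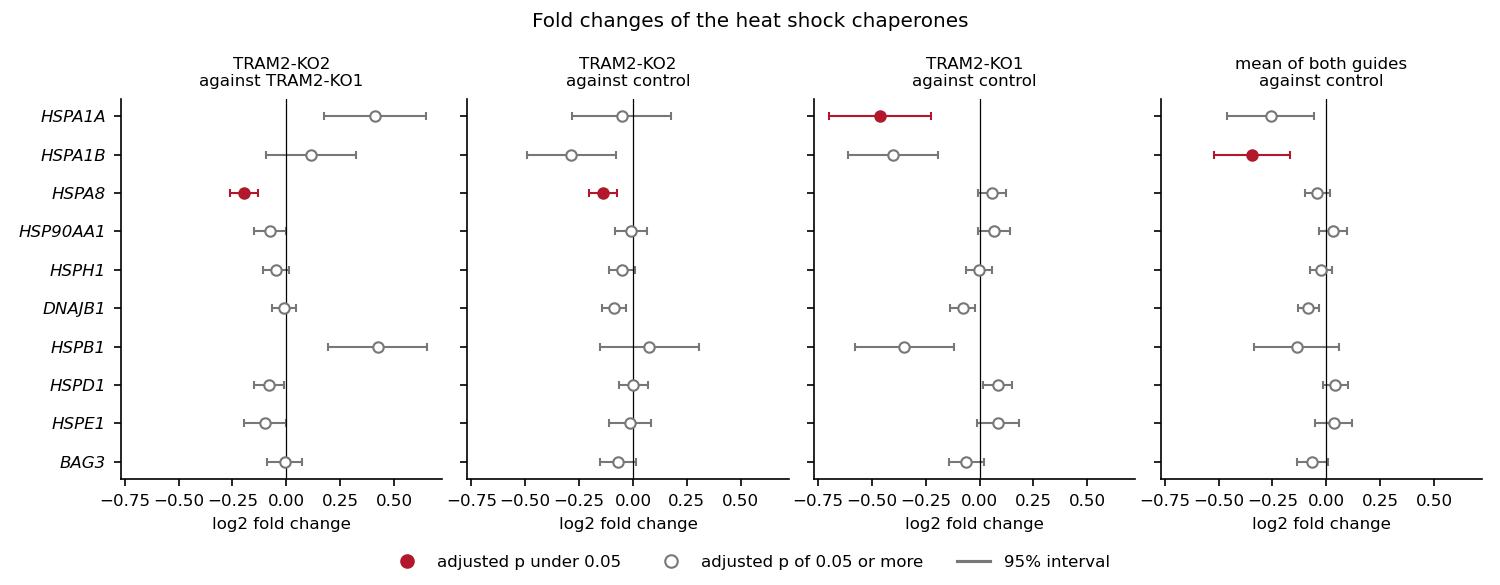
Log2 fold change of each chaperone (x axis) with its 95% interval in TRAM2-KO2 against TRAM2-KO1, TRAM2-KO2 against control, TRAM2-KO1 against control, and both guides averaged against control. Filled points have an adjusted p under 0.05: HSPA8 in the first and second panel (-0.20 and -0.14), HSPA1A in the third (-0.46) and HSPA1B in the fourth (-0.34).

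Reads were also followed to the transcripts they were assigned to. The reads of HSPA1A, HSPA1B, HSP90AA1 and BAG3 fell mostly on 1 protein-coding transcript each, between 97.6% and 100% of them when all libraries were pooled, and 87.4% of DNAJB1 reads did. In single libraries the share was 91.5% for HSPA1A in TRAM2-KO1 B and 100% in the 8 others, 96.8% to 99.7% for BAG3, 97.3% to 98.1% for HSP90AA1 and 84.4% to 92.4% for DNAJB1. HSPE1 was the exception: a transcript with a retained intron (ENST00000463841) took 71.0% to 82.0% of its reads. The protein-coding HSPE1 transcript (ENST00000233893) took 21.5%, 25.2% and 19.3% with TRAM2-KO2, 21.3%, 21.8% and 17.7% with TRAM2-KO1, and 18.6%, 15.2% and 19.3% in the controls. The TRAM2-KO2 libraries lay above the controls, by a narrow margin for library C (19.303%, against 19.272% in control C), and the TRAM2-KO1 libraries overlapped both. Of the 31-base words of that transcript 55.0% occur in other genes and 30.9% in the readthrough gene HSPE1-MOB4 alone, so the split is uncertain. On protein-coding transcripts alone the log2 fold change of HSPE1 was 0.26 with TRAM2-KO2 (adjusted p = 0.358), 0.22 with TRAM2-KO1 (adjusted p = 0.344) and 0.24 in the mean of both guides (adjusted p = 0.318). In HSPH1, 19.7% to 33.4% of reads were assigned to a transcript subject to nonsense-mediated decay (ENST00000602786). HSPB1 reads divided between ENST00000248553 (39.6% to 59.3%) and ENST00000429938 (39.0% to 58.2%), both protein coding. HSPD1 reads divided mainly between ENST00000345042 (38.2% to 62.1%) and ENST00000388968 (19.5% to 39.6%).

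To place the 10 genes among their partners, 90 related genes of the same compartments were listed by function, and 80 had enough reads to be tested. Of these, 0 rose and 1 fell with TRAM2-KO2, 0 rose and 0 fell with TRAM2-KO1 or in the mean, and 1 rose and 1 fell in TRAM2-KO2 against TRAM2-KO1, where the J-domain proteins DNAJB12 and DNAJB4 passed. By DESeq2 the counts in those 4 comparisons were 1, 1, 0 and 4, beside 643, 662, 648 and 589 of all genes. At an unadjusted p under 0.05 edgeR gave 8, 13, 2 and 26 of the 80, beside 15%, 18.5%, 14.8% and 19.8% of all genes. Median log2 fold changes of the 80 were -0.01, 0.02, 0.01 and -0.04, beside -0.00, 0.01, -0.00 and -0.01 for all genes tested.

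DNAJB4, a cytosolic J-domain protein, was at 257, 258 and 263 CPM with TRAM2-KO2, at 281, 305 and 291 CPM with TRAM2-KO1, and at 291, 286 and 288 CPM in the controls, so that its TRAM2-KO2 libraries lay below all others. It fell with TRAM2-KO2 by 0.15 on the log2 scale (SE 0.032, adjusted p = 0.024) and was 0.17 lower there than in TRAM2-KO1 (adjusted p = 0.0237). DNAJB12, a J-domain protein of the ER membrane that faces the cytosol, was at 47.4, 46.3 and 45.0 CPM with TRAM2-KO2, at 41.7, 39.3 and 40.4 CPM with TRAM2-KO1, and at 45.4, 42.6 and 43.3 CPM in the controls. It was 0.19 higher in TRAM2-KO2 than in TRAM2-KO1 (SE 0.0423, adjusted p = 0.0478). All 3 TRAM2-KO1 libraries were below the rest. With TRAM2-KO1 as library A alone neither difference between the guides passed (adjusted p = 0.262 for DNAJB4 and 0.41 for DNAJB12). Over the 9 fits that left out 1 library each, the call of DNAJB4 with TRAM2-KO2 was kept in 3 (adjusted p up to 0.105). Between the guides, the call of DNAJB4 was kept in 1 of the 9 (up to 0.122) and that of DNAJB12 in 1 (up to 0.165).

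Among the regulators, HSF1 had 73.6, 70.8 and 60.6 CPM with TRAM2-KO2, 65.0, 49.8 and 56.4 CPM with TRAM2-KO1, and 69.2, 68.8 and 66.6 CPM in the controls. Its log2 fold change was -0.25 with TRAM2-KO1 (adjusted p = 0.182) and -0.13 in the mean of both guides (adjusted p = 0.505), which turned to 0.01 with GC offsets, and its GC content is 64.7%. Without TRAM2-KO1 A the TRAM2-KO1 value was -0.36 and passed the test (adjusted p = 0.0192), with library A alone it was -0.07 (adjusted p = 0.923), and with GC offsets it was 0.00 in size (-0.0043, adjusted p = 0.977). HSF2 stood at 0.06 in the mean of both guides (adjusted p = 0.656) and the HSF1-binding protein HSBP1 at 0.05 (adjusted p = 0.511). Of 7 other HSP70 and HSP110 genes tested none passed in any of the 4 comparisons, with HSPA14 at 0.08, HSPA2 at -0.12 and HSPA12A at -0.05 in the mean of both guides. The same held for 18 genes of HSP90 and its cochaperones, with the adaptor STIP1, which links HSP70 to HSP90, at -0.05, the kinase-specific CDC37 at -0.08 and the ATPase activator AHSA1 at -0.05. It also held for 6 exchange factors, with BAG4 at -0.10, HSPBP1 at -0.15 and BAG1 at 0.14, and for the 2 small heat shock proteins with enough reads, HSPB8 at 0.36 (adjusted p = 0.469, at 0.697 to 1.54 CPM) and CRYAB at 0.10.

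Another list held 14 subunits of prefoldin and of the cytosolic chaperonin TRiC, which folds actin and tubulin. Values were above 0 for 6 of 14 genes with TRAM2-KO2 (median -0.01) and for 13 of 14 with TRAM2-KO1 (median 0.08). With either guide 0 passed the test. At an unadjusted p under 0.05 there were 0 of 14 with TRAM2-KO2 and 7 of 14 with TRAM2-KO1, beside 2273 and 2806 of the 15139 genes tested. With GC offsets the TRAM2-KO1 median was 0.07, with 6 of 14 at an unadjusted p under 0.05. Without TRAM2-KO1 A the median was 0.11 and 4 of 14 rose with TRAM2-KO1, where 1952 of 15409 genes were called in either direction. With library A alone the median was 0.03, with 10 of 14 above 0. CCT2 had 291, 287 and 291 CPM with TRAM2-KO2, 300.4, 329 and 303 CPM with TRAM2-KO1, and 290.3, 289 and 279 CPM in the controls, with a log2 fold change of 0.07 in the mean of both guides (adjusted p = 0.348). CCT6A stood at 0.05 and PFDN6 at 0.07. Of 14 other mitochondrial chaperones and proteases 0 passed in any comparison, with the iron-sulfur cochaperone HSCB at 0.22, the inner membrane protease YME1L1 at 0.09 and the exchange factor GRPEL1 at 0.07 in the mean of both guides. Of the 15 J-domain proteins tested, DNAJB14 stood at 0.07 and DNAJC6 at -0.05.

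The ER chaperones, counterparts of these genes in the compartment that TRAM2 serves, are given for comparison. Of 14 ER chaperones, 8 fell with TRAM2-KO2 and 7 with TRAM2-KO1, where 2.49% and 2.15% of all genes fell. With either guide 0 rose, and the median log2 fold changes were -0.18 and -0.20. Without TRAM2-KO1 A, 9 fell with TRAM2-KO1 (median -0.22), where 1952 of 15409 genes were called in either direction. With that library alone the median was -0.18. HSPA5 (BiP), the HSP70 of the ER, had 554, 547 and 550.2 CPM with TRAM2-KO2, 573, 589.9 and 577 CPM with TRAM2-KO1, and 670.1, 673 and 648 CPM in the controls. It fell by 0.27 on the log2 scale with TRAM2-KO2 (adjusted p = 0.000191) and by 0.19 with TRAM2-KO1 (adjusted p = 0.00206), where its cytosolic counterpart HSPA8 stood at -0.14 and 0.06. HSP90B1 (GRP94), the HSP90 of the ER, fell by 0.34 with TRAM2-KO2 (adjusted p = 0.000105) and by 0.28 with TRAM2-KO1 (adjusted p = 0.000507), where HSP90AA1 stood at -0.01 and 0.07. HYOU1, the HSP110 of the ER, fell by 0.38 with TRAM2-KO2 (adjusted p = 2.55e-05) and by 0.46 with TRAM2-KO1 (adjusted p = 7.04e-06), where HSPH1 stood at -0.05 and -0.00. The disulfide isomerase PDIA4 fell the most of the list, by 0.55 with TRAM2-KO2 (adjusted p = 3.66e-06) and by 0.73 with TRAM2-KO1 (adjusted p = 2.97e-07). Without TRAM2-KO1 A the TRAM2-KO1 values of these 4 genes were -0.19, -0.26, -0.47 and -0.75. No test was made of the difference between an ER gene and its cytosolic counterpart, and the values stand side by side as a description.

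**Figure D5:**
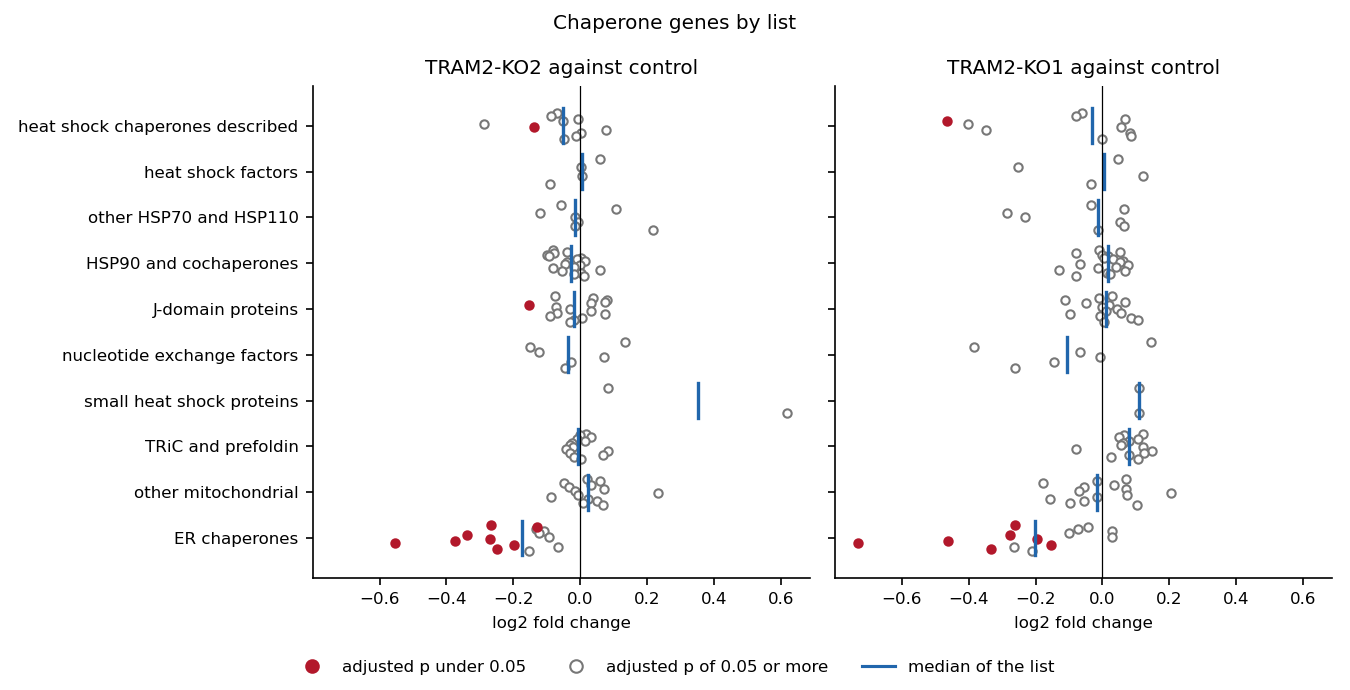
Log2 fold change (x axis) of every tested gene of each chaperone list (rows), in TRAM2-KO2 against control (left) and TRAM2-KO1 against control (right), with the list's median as a vertical bar and filled points for an adjusted p under 0.05. In each panel 1 of the 10 heat shock chaperones is filled, and 8 and 7 of the 14 ER chaperones are.

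Finally, genes outside all lists were ranked by how closely their log2 CPM over the 9 libraries followed the mean of the 10 centred chaperone profiles, among 9244 genes of at least 10 CPM. The closest were LMAN2 (Pearson r = 0.992), a cargo receptor between ER and Golgi, WFS1 (0.991), an ER membrane protein, FSTL3 (0.986), a secreted inhibitor of activin, PRKCSH (0.984), the glucosidase II beta subunit of the ER, and GRN (0.983), the precursor of granulins. The mean profile was not scaled by gene, so the genes that vary most weigh most in it, and the 10 do not move together. In TRAM2-KO1 B, against the control mean, HSPA1A, HSPA1B and HSPB1 stood at -0.76, -0.65 and -0.67 on the log2 scale. There HSPA8, HSP90AA1, HSPD1 and HSPE1 stood at 0.10 to 0.13, HSPH1 at 0.02, DNAJB1 at -0.07 and BAG3 at -0.13. These coefficients rest on 9 libraries that differ in group and in their GC trend, which all genes of a library share, and they are given as a description.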

How the data were processed

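Poly(A) RNA of 9 libraries was quantified per transcript. The authors trimmed reads with cutadapt and ran Salmon; for versions, transcript release and build the entry is: not given in the sources used here. The deposited values are estimated counts of reads per transcript as the authors obtained them from Salmon, not normalised, and the deposited TPM and effective lengths are Salmon's own. Transcripts were matched to GENCODE v44 lifted to GRCh37, which gave gene names and positions (220336 of 226030 transcripts, 97.5%, with 98.4% to 98.5% of reads). Estimated counts were summed per gene and rounded; TPM was summed. In edgeR 4.0.16 (R 4.3.3, limma 3.58.1), genes passing filterByExpr with a minimum of 10 reads were scaled by TMM and fitted with the 3 groups as terms, and quasi-likelihood tests were adjusted by Benjamini-Hochberg over the 15139 genes at 0.05, two-sided. Log2 CPM used a prior count of 2. Intervals are at 95%, and the common biological coefficient of variation came to 5.86%.

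The members and the gene lists were chosen with earlier results of these data known. Of each related list up to 3 genes were named, those of smallest p for the mean over guides. Named too were any list gene past the test beyond log2 0.5, close relatives of the members, HSF1, HSF2 and TRAM2. The 5 genes closest to the mean profile of the members were also named. DNAJB4 and DNAJB12 in the comparison of the guides were named for passing the test after their values were seen. The markers KRT5, KRT6A, KRT14, KRT17, LAMB3, TP63, FAP and LUM were also named after their values were seen. Other genes the rule takes are not described. HSPB11 and PECAM1 were not matched, and 9 further listed chaperone genes had too few reads. Alternatives were DESeq2 1.42.0, its size factors, other filters, length and GC offsets (GC of the longest transcript), a block on the library letter, only the groups compared, protein-coding transcripts, HSPA1A with HSPA1B as 1 feature, and each library left out. The procedure was run on simulated counts with known changes. Those counts held no GC trend and no uneven library, so they do not bear on these features of the data. Promoter windows are RefSeq's on GRCh38.p14.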

Additional observations from a re-analysis of the deposited data

Results flagged for a closer look

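The guides differed in 4 of the chaperone genes named above, by the edgeR contrast of TRAM2-KO2 with TRAM2-KO1, which tests the difference between their effects. The basal epithelial markers are left out of this count, and 6 of the 7 tested were called higher in TRAM2-KO2 by that contrast. HSPA8 was at -0.20 on the log2 scale (adjusted p = 0.00898), with all 3 TRAM2-KO2 libraries below all 3 TRAM2-KO1 libraries. DNAJB4 was at -0.17 (adjusted p = 0.0237), DNAJB12 at 0.19 (adjusted p = 0.0478) and PDIA4 at 0.18 (adjusted p = 0.00885). Over the 9 fits that left out 1 library each, the call was kept in 8 for HSPA8 and 9 for PDIA4. For DNAJB4 it was kept in 1 and for DNAJB12 in 1. With TRAM2-KO1 as library A alone the adjusted p of these 4 differences was 0.114, 0.262, 0.41 and 0.102. The part of the GC trend of TRAM2-KO1 B and C in them was not tested beyond the GC offsets, under which HSPA8 was at -0.17 (adjusted p = 0.00521), DNAJB4 at -0.10 (adjusted p = 0.048), PDIA4 at 0.15 (adjusted p = 0.00884) and DNAJB12 at 0.12 (adjusted p = 0.12).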

How the results depend on the processing

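Each of the 10 genes had 923 reads or more in every library. The number of the 10 that passed was 1 in each comparison (TRAM2-KO1, TRAM2-KO2 and the mean of the guides against control, and between guides, in this order below). It became 3 (TRAM2-KO1) and 3 (between guides) with DESeq2, 3, 2, 2 and 3 with no filter, 2 (TRAM2-KO1), 2 (mean) and 2 (between guides) at a mean of at least 5 CPM, 0 in all 4 with length offsets, 2, 2 and 3 (between guides) with GC offsets, 0, 2 and 0 (between guides) with only the groups compared, 0 (TRAM2-KO1) and 0 (mean) on protein-coding transcripts, and 0 (mean) with HSPA1A and HSPA1B as 1 feature. Leaving out each library gave 0 to 4, 0 to 2, 0 to 2 and 0 to 5, the highest for TRAM2-KO1 and between guides without TRAM2-KO1 A. Over all genes, 440, 639, 581 and 344 of 15139 passed with the main settings. The counts over all genes were 662, 643, 648 and 589 with DESeq2, 725, 666, 675 and 683 with no filter, and 498, 981, 812 and 472 with GC offsets. Without TRAM2-KO1 A they rose to 1952 of 15409 with TRAM2-KO1 and 1828 between guides. Related genes past the test, 0, 1, 0 and 2 of 80, became 1 (TRAM2-KO1) and 4 (between guides) with DESeq2, 4 (between guides) with no filter, 0 (TRAM2-KO2) and 0 (between guides) with length offsets, 2 (mean) and 1 (between guides) with GC offsets, 0 (between guides) with only the groups compared, and 0 (TRAM2-KO2) and 1 (between guides) on protein-coding transcripts. Leaving out each library gave 0 to 12, 0 to 1, 0 to 1 and 0 to 20, the highest values again without TRAM2-KO1 A. TRAM2-KO1 as library A alone, chosen after seeing the data and with its spread taken from the other groups, gave 0 of the 10 and 0 related genes in TRAM2-KO1 against control and between guides. The causes were not tested.

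Of the calls, HSPA1A with TRAM2-KO1 was lost in 8 of 9 runs without a library (adjusted p up to 0.156) and with length offsets (0.166), only the groups compared (0.102) or protein-coding transcripts (0.0722). The summed HSPA1A and HSPA1B call with TRAM2-KO1 was lost in 8 of 9 runs without a library (up to 0.159) and kept in 6 of 11 other alternatives (up to 0.247 in the rest). HSPA8 with TRAM2-KO2 was lost without each control or TRAM2-KO2 library (up to 0.114) and with length offsets (0.231), HSPA8 between guides without TRAM2-KO2 B (0.0584), with length offsets (0.0851) or only the groups compared (0.061), and HSPA1B in the mean of both guides in 7 of 9 runs without a library (up to 0.185), with length offsets (0.167) and on protein-coding transcripts (0.0692). The falls of TRAM2, PDIA4, HYOU1, HSPA5 and HSP90B1 against control kept their direction and call in every alternative run.

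Signs turned in values that passed no test. With no filter, HSPH1 was at 0.0065 with TRAM2-KO1 and HSP90AA1 at 0.00505 with TRAM2-KO2. At a mean of at least 5 CPM, DNAJB1 and BAG3 were at 0.0029 and 0.0038 between guides. With length offsets, HSPH1 was at 0.18 with TRAM2-KO1 and 0.00049 in the mean of both guides, HSPD1 at -0.095 with TRAM2-KO2 and -0.027 in the mean, HSPE1 at 0.024 with TRAM2-KO2, BAG3 at 0.048 between guides, and in the mean HSF1 at 0.0018, STIP1 at 0.014, CRYAB at -0.092 and GRPEL1 at -0.084. With GC offsets, BAG3 was at 0.027 with TRAM2-KO1, HSPH1 at 0.00404 between guides, and in the mean HSF1 at 0.0089 and CDC37 at 0.00094. With only the groups compared, BAG3 was at 0.00024 between guides. On protein-coding transcripts, HSPH1 was at 0.089 with TRAM2-KO1 and 0.0048 in the mean, HSPE1 at 0.26 with TRAM2-KO2 and 0.038 between guides, and AHSA1 at 0.075 in the mean. With TRAM2-KO1 as library A alone, HSPA8 was at -0.0104 and HSPE1 at -0.0056 with TRAM2-KO1, HSPE1 at -0.0086 in the mean, and HSPA1B at -0.11 and DNAJB1 at 0.0083 between guides. Leaving out each library gave HSPH1 values of -0.017 to 0.013 with TRAM2-KO1, with TRAM2-KO2 HSP90AA1 values of -0.032 to 0.0077, HSPD1 values of -0.017 to 0.024 and HSPE1 values of -0.037 to 0.021, between guides DNAJB1 values of -0.016 to 0.0099 and BAG3 values of -0.034 to 0.0203, and in the mean CRYAB values of -0.026 to 0.25 and HSPA12A values of -0.0995 to 0.00029.

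No pairing by the letters A, B and C was seen: deviations from the group means correlated at -0.09 to 0.11 between libraries with the same letter. Between libraries with different letters they correlated at -0.15 to 0.13. These deviations also hold the GC trend, so they cannot decide whether the letters mark a shared batch. With a replicate block, 1 of the 10 passed in each comparison, with HSPA1B at -0.41 (adjusted p = 0.0479) in place of HSPA1A at -0.47 (adjusted p = 0.0607) with TRAM2-KO1. With the replicate block and GC offsets together, 2 of the 10 passed with TRAM2-KO1 and 2 with TRAM2-KO2, 1 related gene passed in the mean and 0 between guides, and signs turned for BAG3 (0.027) with TRAM2-KO1, HSPH1 (0.0038) between guides, and HSF1 (0.0091) and CDC37 (0.00039) in the mean.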
